A study of Homo sapiens with 6 samples.

Results

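A set of 42 genes of the hypoxia response and of glycolysis was followed in DU 145 cells, chosen by symbol from the 24305 genes of the deposited tables. By role they are 7 genes of oxygen sensing, 12 targets of the hypoxia-inducible factors (HIFs) outside glycolysis, 16 glycolytic enzymes, 3 enzymes that set fructose-2,6-bisphosphate, and 4 transporters of glucose or lactate. DU 145 is an established human prostate cancer cell line that the series describes as deficient in homologous recombination repair and castration-resistant. Total RNA was sequenced from 3 libraries of cells given talazoparib, which blocks PARP1 and PARP2, for 48 h, and from 3 control libraries whose label reads "DMOS", read here as DMSO, the solvent. The dose used for these libraries is not stated in their labels, no oxygen level is given, and nothing says that the replicates were separate cultures, so the p-values rest on a spread that may be technical.

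Cells sense oxygen through the HIFs, each a pair of an oxygen-labile alpha subunit (HIF-1 alpha from HIF1A or HIF-2 alpha from EPAS1) and the stable partner encoded by ARNT. When oxygen is present, the EGLN prolyl hydroxylases mark the alpha subunit, and the VHL ubiquitin ligase removes it, so that most of this control acts on the protein and not on its mRNA. When oxygen falls, the pair binds DNA at the core letters ACGTG or GCGTG and raises genes for glucose uptake, glycolysis, lactate export, acid handling and blood vessel growth. Many cancer lines also run glycolysis at a high rate in full oxygen.

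The core letters stood before listed transcript starts of genes that rose and of genes that fell, and a few of these sites are shown to allow that comparison. RefSeq promoters on GRCh38.p14 were found by symbol for 36 of the 42 genes, and the 250 bases before each listed transcript start were searched on both strands for ACGTG and for GCGTG; the palindrome CACGTG holds ACGTG on both strands and counts once per gene. In 21 of the 36 genes (58.3%) at least 1 start had ACGTG, against 28.3% of 11447 tested genes with a promoter; either motif was present in 30 (83.3%), against 64.6%. The set includes genes chosen as HIF targets, so a higher share of the core letters is not independent of that choice. The 36 also include CA9 and EGLN2, which were too low to test, while the comparison covers tested genes only. These shares are per gene, and a gene with more listed starts had more bases searched. Counted per start, 36.9% of the 65 starts of the set had ACGTG, against 22.1% of the 16448 starts of tested genes. Either motif stood before 60.0% of them, against 55.1%, so this difference was small. By that count the starts of the glycolytic enzymes lay below the tested genes, and those of the other HIF targets above. Over all 35116 promoters in the table, also counted per start, 18.5% held ACGTG and 43.2% held either. The following stretches are read 5′ to 3′ on the gene's strand, with the matches on either strand in capitals. The first set is from genes that fell with talazoparib and the second from genes that rose, by the first fit below. In the second fit below, GAPDH was lower. A match is a description of the letters and not a tested binding site.

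ADM: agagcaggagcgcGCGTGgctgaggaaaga

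P4HA1: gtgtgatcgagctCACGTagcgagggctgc

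HK2: cagccaatggGCGTGcgCACGTcactgatc

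PGK1: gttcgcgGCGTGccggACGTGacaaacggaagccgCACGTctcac

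GAPDH: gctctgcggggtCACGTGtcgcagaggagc

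LDHA: cgactcaCACGTGggttcccgCACGTccgc

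These lie at chr11:10304959-10304988 (plus strand, ADM), chr10:73096936-73096965 (minus strand, P4HA1), chr2:74834062-74834091 (plus strand, HK2), chrX:78104030-78104074 (plus strand, PGK1), chr12:6535171-6535200 (plus strand, GAPDH) and chr11:18394469-18394498 (plus strand, LDHA). Each stretch precedes a RefSeq start but lies within the span that GENCODE release 29 gives the gene. Those of ADM, P4HA1, HK2 and LDHA overlap annotated exons, and those of PGK1 and GAPDH overlap none. Of the 10 HIF targets outside glycolysis with a promoter entry, all 10 held either motif before at least 1 start, and so did 13 of the 16 glycolytic enzymes. PKM, PGAM1 and LDHB had neither in the bases searched.

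With talazoparib, the glycolytic enzymes and the other HIF targets moved in different proportions. Of 16 glycolytic enzymes, 11 rose and 2 fell (3 were not past the test), and their median log2 fold change was 0.29. Of 11 other HIF targets tested, 2 rose and 6 fell (3 were not past the test), and their median was -0.28. The enzymes that fell were HK2, to 26.8 ± 1.69 CPM with talazoparib, against 53.6 ± 2.82 CPM in control, and LDHB, to 271 ± 27.4 CPM, against 499 ± 29.8 CPM in control (SD, n = 3 each). The most abundant enzymes rose by 28.3% (GAPDH), 33.0% (ENO1) and 39.1% (PKM), and the peptide hormone gene ADM fell most among the targets, to 9.92 ± 0.277 CPM, against 21.8 ± 3.06 CPM in control.

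These counts stand on a comparison in which most genes changed. CPM, the usual depth-scaled count, was taken at library sizes adjusted by TMM (trimmed mean of M values). A gene is said to have risen or fallen when edgeR's quasi-likelihood test gave a Benjamini-Hochberg adjusted p under 0.05 over all 14452 genes tested. Of those genes 56.7% were called, 26.8% as higher and 29.9% as lower, with a median log2 fold change of 0.00. That median and the directions are relative to the TMM scaling. Under total count scaling the enzyme median was 0.21, against 0.29 with TMM. Of the 42 genes, 39 passed the filter on low counts, 17 of them (43.6%) rose and 13 (33.3%) fell. Groups did not overlap for 31 of the 39, and for 64.4% of all genes tested. Without control replicate 2, or without control replicate 3, the number that rose was 11 in each case, and the number that fell was also 11. Over the fits that each left out 1 library, the number of all genes called higher ranged from 2622 to 3973, against 3873 with every library. The number called lower ranged from 3731 to 4576, against 4327. Of the other HIF targets 1 rose without talazoparib replicate 3, control replicate 2 or control replicate 3.

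Fold changes over all genes followed the GC content and the length of the transcript, and the 2 groups of genes differ in both. When the genes tested were cut into 5 bins of GC content, 47.9% rose and 5.91% fell in the bin from 52.6% to 59.0% GC, while 5.43% rose and 55.9% fell in the bin from 41.5% to 46.5% GC. Of the 16 enzymes 12 lie above 52.6% GC, and 9 of those 12 rose. Of the 11 other HIF targets tested 3 lie there. A second fit therefore removed each library's trend over GC content and deposited length. In this fit, called trend-removed below, 44.2% of 13718 genes were called, 22.0% as higher and 22.2% as lower. Of the 16 enzymes 4 were then higher and 3 lower (median 0.04), and of the 11 other HIF targets 2 were higher and 4 lower (median -0.25). How far the trend belongs to the libraries or to the drug was not tested, so values from both fits are given.

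**Figure D1:**
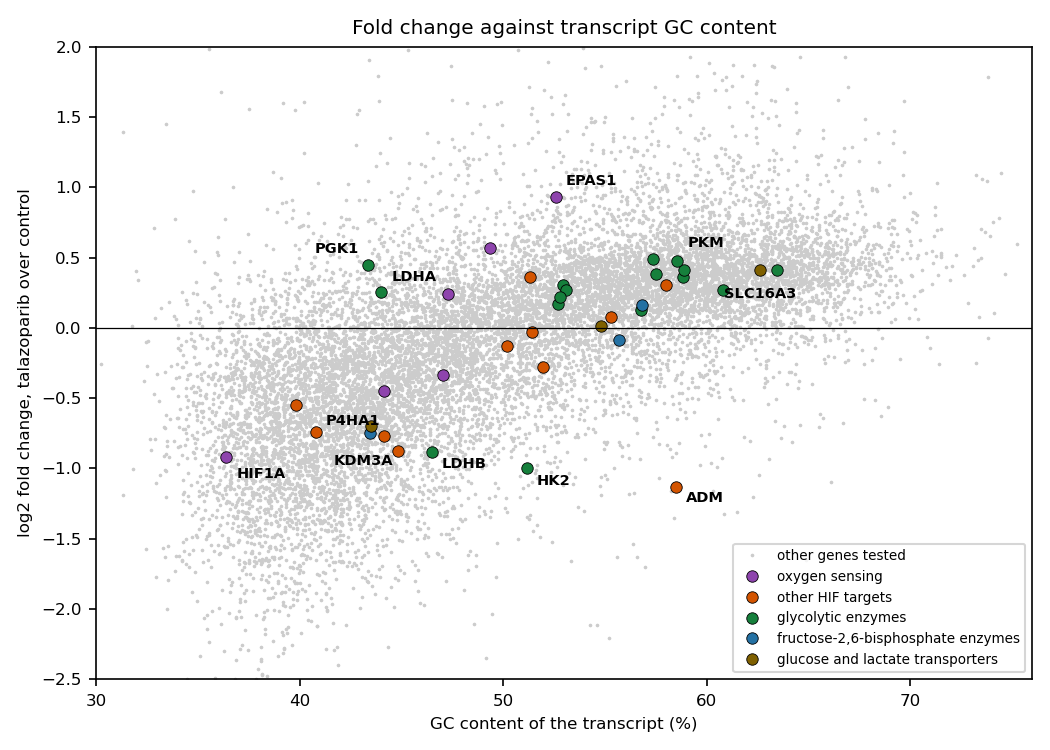
Log2 fold change, talazoparib over control, against the GC content of the transcript (%), for the genes tested that have a GC value (grey; those beyond the axis limits are not drawn) and for the hypoxia and glycolysis genes, coloured by role. Most enzymes lie at 52.6% GC and above. HK2 (51.2% GC) and ADM (58.5% GC) lie below the median log2 fold change of all genes in their GC bins (-0.02 and 0.29). PGK1 (43.3% GC) and LDHA (44.0% GC) lie above that of theirs (-0.43).

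The libraries held some but not all of the usual markers of prostate epithelium. KRT8, a simple-epithelium keratin, stood at 534 to 593 CPM with talazoparib and 535 to 652 CPM in control, while the prostate protease gene TMPRSS2 had at most 1 count per library. The adhesion molecule CDH1, a usual epithelial marker, was at only 0.609 to 1.12 CPM with talazoparib and 0.935 to 1.65 CPM in control. PTPRC (blood cells), CD3E (T cells) and DCN (fibroblasts) had 0 counts in all 6. The collagen gene COL3A1, however, stood at 14.99 to 20.1 CPM with talazoparib and 21.0 to 23.2 CPM in control. COL1A1, another collagen gene, was at 2.08 to 3.05 and 2.49 to 2.63 CPM. PECAM1 and VWF (endothelium) and PDGFRB (stroma) had 2 to 18, 1 to 10 and 2 to 10 counts per library. Of the prostate and epithelial markers 6 were tested and 2 rose (KRT19 and CLDN4, log2 fold changes of 1.13 and 1.71). Trend-removed, these were 0.56 and 1.27 and still higher, and the keratins KRT8 and KRT18 were lower (-0.37 and -0.33). Of the markers of other cell types 3 were tested and CD14 rose (1.86 ± 0.374 CPM with talazoparib, 0.918 ± 0.0943 CPM in control; log2 fold change 1.02), a call that ended trend-removed (0.55). COL3A1 fell (-0.40, and -0.43 trend-removed), a call that ended without talazoparib replicate 1 or 2 or control replicate 2 or 3 (-0.55 to -0.32 over the 6 fits). Total counts ran from 39123997 to 39585727 per library. In RNA from whole cultures, fewer cells with a transcript and less of it per cell cannot be told apart.

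**Figure D2:**
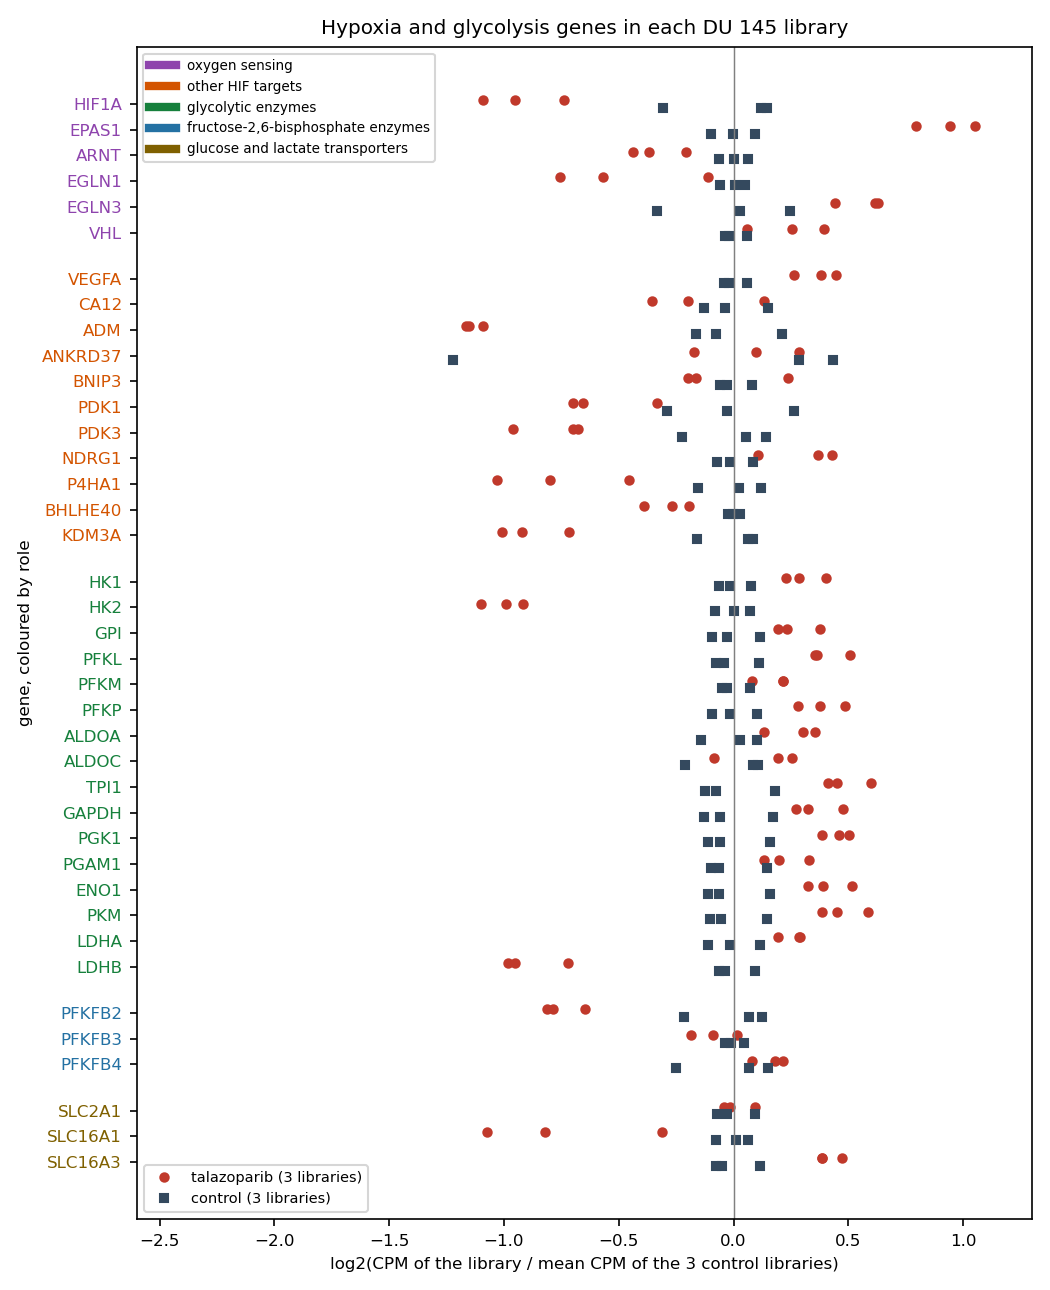
Each point is one library, placed at log2 of its CPM over the mean CPM of the 3 control libraries; talazoparib libraries are red circles and control libraries dark squares, and gene names are coloured by role. HK2, LDHB and ADM show 3 talazoparib points far left of the control points, EPAS1 shows 3 far right, and most enzymes show a narrow shift to the right.

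Within oxygen sensing, the 2 alpha subunits changed in opposite directions. HIF1A had 40.3, 31.6 and 34.8 CPM in the talazoparib libraries, against 54.3, 73.1 and 74.5 CPM in control. All 3 talazoparib libraries were below all 3 control libraries, and control replicate 1 was the lowest of the control group. The log2 fold change was -0.92 ± 0.13 (SE; edgeR adjusted p = 0.000142), but trend-removed it was -0.26 and did not pass (adjusted p = 0.149); HIF1A has 36.4% GC. EPAS1 had 11.2, 9.36 and 10.4 CPM with talazoparib, against 5.38, 5.74 and 5.04 CPM in control. The groups were well apart, with a log2 fold change of 0.93 ± 0.14 (edgeR adjusted p = 0.000177) and 0.88 trend-removed (adjusted p = 0.000163). Per length, HIF1A remained the more abundant alpha subunit in both groups: it averaged 8.28 ± 1.07 FPKM with talazoparib and 16.5 ± 3.12 FPKM in control, and EPAS1 1.84 ± 0.183 FPKM with talazoparib and 1.01 ± 0.0811 FPKM in control. Their partner ARNT fell slightly (62.6 to 73.3 CPM with talazoparib, 81.0 to 88.4 CPM in control; log2 fold change -0.33, and -0.13 and not past the test trend-removed).

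The hydroxylases and the ligase that act on the alpha subunits also differed among themselves. EGLN1, which encodes PHD2, the main hydroxylase in most cells, had 46.1, 40.5 and 63.3 CPM with talazoparib, against 65.6, 70.8 and 68.6 CPM in control. Its fall of 0.45 on the log2 scale was uneven, since talazoparib replicate 3 lay close to the control libraries, and the call ended without talazoparib replicate 1, control replicate 2 or control replicate 3 (-0.66 to -0.32 over the 6 fits that each left out a library) and trend-removed (-0.08). EGLN3, which encodes PHD3 and is itself a HIF target, had 6.51, 5.77 and 6.57 CPM with talazoparib, against 5.03, 4.33 and 3.37 CPM in control. Its rise was 0.57 ± 0.18 in log2 units (edgeR adjusted p = 0.0154) and 0.51 trend-removed, and the call ended without the same libraries as for EGLN1 (0.39 to 0.67 over the 6 fits). VHL had 108, 94.5 and 119 CPM with talazoparib, against 94.4, 88.4 and 89.5 CPM in control, so the lowest talazoparib library was level with the highest control library. The difference passed narrowly (0.24 ± 0.09, edgeR adjusted p = 0.0363), was 0.41 trend-removed (adjusted p = 0.00119), and lost its call without any one library except talazoparib replicate 2 (0.16 to 0.33). EGLN2, which encodes PHD1, had 0 to 4 counts in each library and was not tested. Its annotated exons share 30.6% of their bases with those of the read-through gene RAB4B-EGLN2 on the same strand, so that reads there can be assigned to neither, and this level is uncertain.

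Among HIF targets outside glycolysis, the secreted signals went opposite ways. ADM, which encodes the vessel-dilating peptide adrenomedullin, had 10.2, 9.81 and 9.71 CPM with talazoparib, against 25.3, 20.7 and 19.5 CPM in control. The talazoparib libraries lay close together at less than the lowest control value, and the log2 fold change was -1.14 ± 0.13 (edgeR adjusted p = 2.67e-05). Trend-removed it was -1.63 (adjusted p = 7.58e-07), and only 5.91% of all genes in the GC bin of ADM fell. VEGFA, the vessel growth factor, had 72.2, 81.9 and 78.5 CPM with talazoparib, against 59.4, 58.5 and 62.7 CPM in control. Its log2 fold change was 0.37 ± 0.08 (edgeR adjusted p = 0.0022; 0.27 trend-removed, adjusted p = 0.00404), with no overlap between the groups.

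The targets that fell include chromatin, matrix and mitochondrial gate enzymes. KDM3A, a demethylase of histone H3 lysine 9, had 10.5, 11.2 and 12.9 CPM with talazoparib, against 18.9, 22.5 and 22.1 CPM in control (log2 fold change -0.88 ± 0.13, edgeR adjusted p = 0.000119; -0.50 trend-removed, adjusted p = 0.00117). P4HA1, the collagen prolyl hydroxylase subunit, had 38.4, 32.6 and 48.7 CPM with talazoparib, against 59.9, 67.7 and 72.4 CPM in control (-0.74 ± 0.13, edgeR adjusted p = 0.000705; -0.25 trend-removed, adjusted p = 0.0125). Both fell in both fits, as did the transcriptional repressor BHLHE40 by a smaller step (-0.28, and -0.43 trend-removed; the first call ended without talazoparib replicate 1, at -0.29). PDK1 and PDK3 encode kinases that switch off pyruvate dehydrogenase and so keep pyruvate out of the mitochondrial cycle. PDK3 had 9.48, 9.33 and 7.78 CPM with talazoparib, against 13.0, 15.7 and 16.7 CPM in control, a log2 fold change of -0.77 ± 0.14 (edgeR adjusted p = 0.000629) that was 0.00 in size trend-removed (adjusted p = 0.989). PDK1 had 4.71, 4.86 and 6.09 CPM with talazoparib, against 6.27, 9.20 and 7.501 CPM in control. Its call turned round between the fits: it fell in the first (-0.55 ± 0.18, edgeR adjusted p = 0.0185) and was higher trend-removed (0.49, adjusted p = 0.0106), and the fall was lost without talazoparib replicate 1, control replicate 2 or control replicate 3 (-0.71 to -0.43). Both PDK transcripts are long and poor in GC, with deposited lengths of 15188 nt for PDK1 and 13074 nt for PDK3.

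Of the remaining targets, NDRG1, a stress-response gene, rose (48.5 to 60.8 CPM with talazoparib, 42.9 to 47.8 CPM in control; log2 fold change 0.31), a call that ended trend-removed (0.04) and without talazoparib replicate 3, control replicate 2 or control replicate 3 (0.24 to 0.40). The mitophagy receptor BNIP3 (60.0 to 81.2 CPM with talazoparib, 66.2 to 73.0 CPM in control), the carbonic anhydrase CA12 (2.74 to 3.83 and 3.199 to 3.89 CPM) and ANKRD37 (0.735 to 1.01 and 0.355 to 1.12 CPM) overlapped between the groups and did not pass in either fit. Their log2 fold changes were -0.03, -0.13 and 0.08, and -0.28, -0.02 and -0.42 trend-removed. ANKRD37 shares 35.2% of its exon bases with UFSP2 on the other strand. CA9, the carbonic anhydrase often used as a tissue marker of hypoxia, had 0 counts in all 6 libraries; 38.5% of its annotated exon bases are shared with ARHGEF39 on the other strand.

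**Figure D3:**
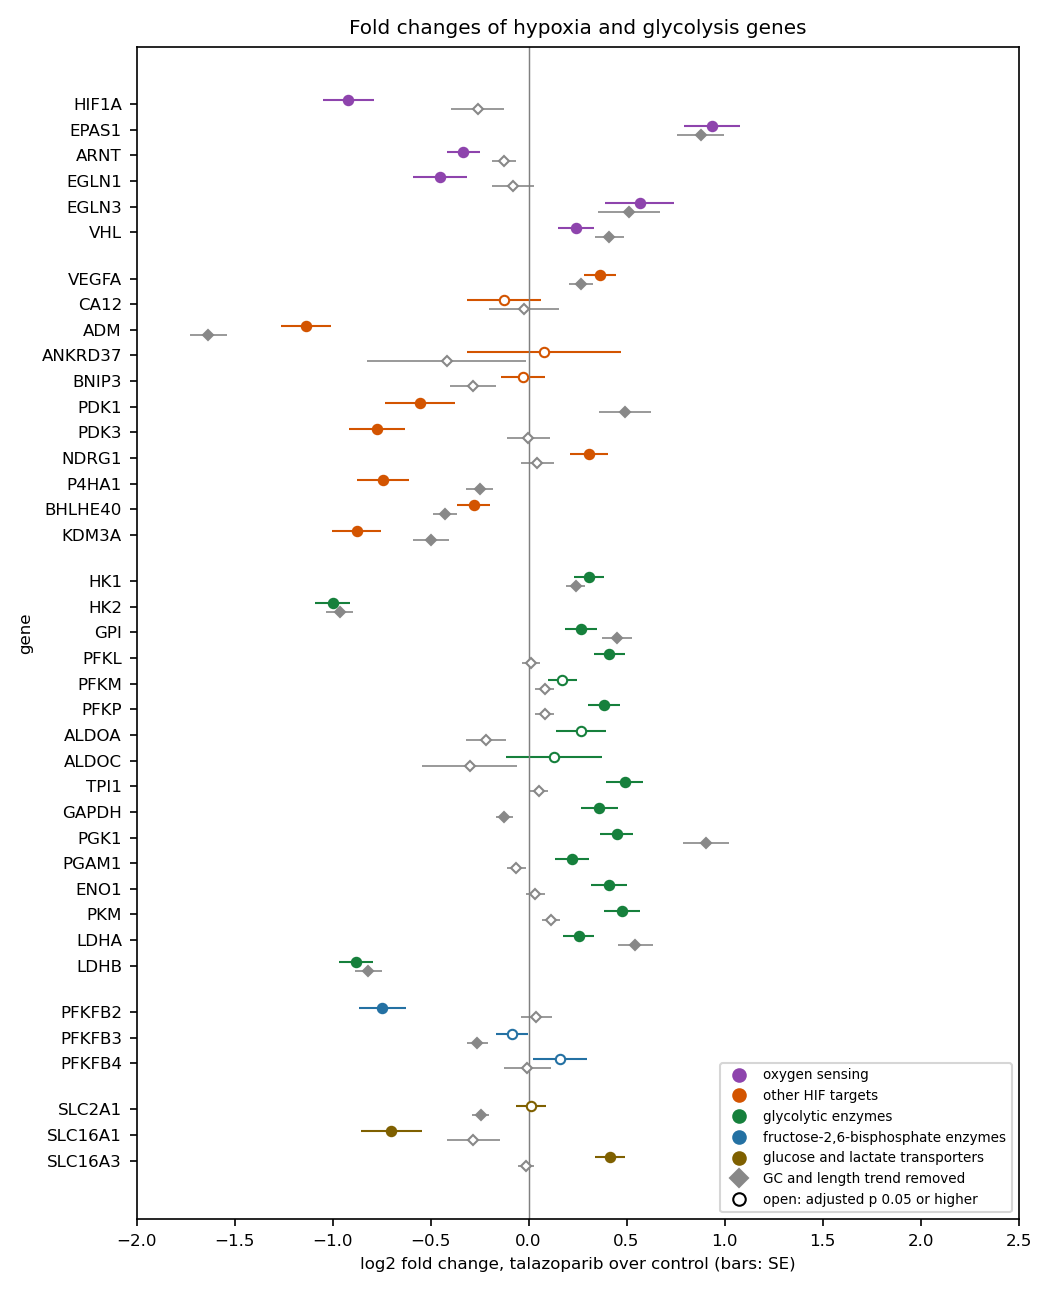
Log2 fold change, talazoparib over control, with SE, for the 39 genes tested, in the fit on TMM-scaled counts (coloured circles) and with the GC and length trend removed (grey diamonds); filled symbols have an adjusted p under 0.05. HK2, LDHB and EPAS1 differ little between the fits and ADM lies further left in the second, while TPI1, ENO1, PKM and SLC16A3 move toward 0 and PDK1 and GAPDH change sides.

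At the first step of glycolysis, where hexokinase traps glucose in the cell as glucose-6-phosphate, the 2 isozymes moved apart. HK2, the inducible form that HIF-1 raises and many tumours favour, had 25.0, 28.4 and 27.0 CPM with talazoparib, against 50.7, 53.6 and 56.4 CPM in control. The libraries of each group lay close together and the groups were far apart, with a log2 fold change of -1.0 ± 0.09 (edgeR adjusted p = 1.03e-05) and -0.96 trend-removed (adjusted p = 2.82e-06). HK1, the constitutive form, had 294, 318 and 282 CPM with talazoparib, against 254, 230 and 238 CPM in control, and rose, with a log2 fold change of 0.31 ± 0.08 (edgeR adjusted p = 0.00406; 0.24 trend-removed, adjusted p = 0.00243). As a share of the summed FPKM of both, HK2 was 7.43%, 7.75% and 8.27% in the talazoparib libraries, against 15.9%, 18.0% and 18.3% in control. Its share was thus smaller in each talazoparib library than in any control library, and HK1 was the major form throughout.

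The last step, between pyruvate and lactate, showed the same kind of split. LDHB, the subunit of the form that favours lactate use, had 303, 253 and 258 CPM with talazoparib, against 478, 486 and 533 CPM in control. The groups were clearly separate, and its log2 fold change was -0.88 ± 0.09 (edgeR adjusted p = 1.31e-05), and -0.82 trend-removed (adjusted p = 9.6e-06). LDHA, the HIF-1 target whose form favours lactate production, had 821, 819 and 769 CPM with talazoparib, against 729, 622 and 666 CPM in control. It rose by 0.26 ± 0.08 (edgeR adjusted p = 0.0145), a call that ended without talazoparib replicate 1, control replicate 2 or control replicate 3 (0.17 to 0.29), and by 0.54 trend-removed (adjusted p = 0.00106). The share of LDHB in the summed FPKM of LDHA and LDHB was 32.1%, 28.3% and 30.03% in the talazoparib libraries and 45.6%, 50.01% and 50.6% in the control libraries. The 2 mRNAs were therefore near parity in control libraries, and LDHA was the major one with talazoparib. LDHB shares 33.4% of its annotated exon bases with another gene on the same strand.

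**Figure D4:**
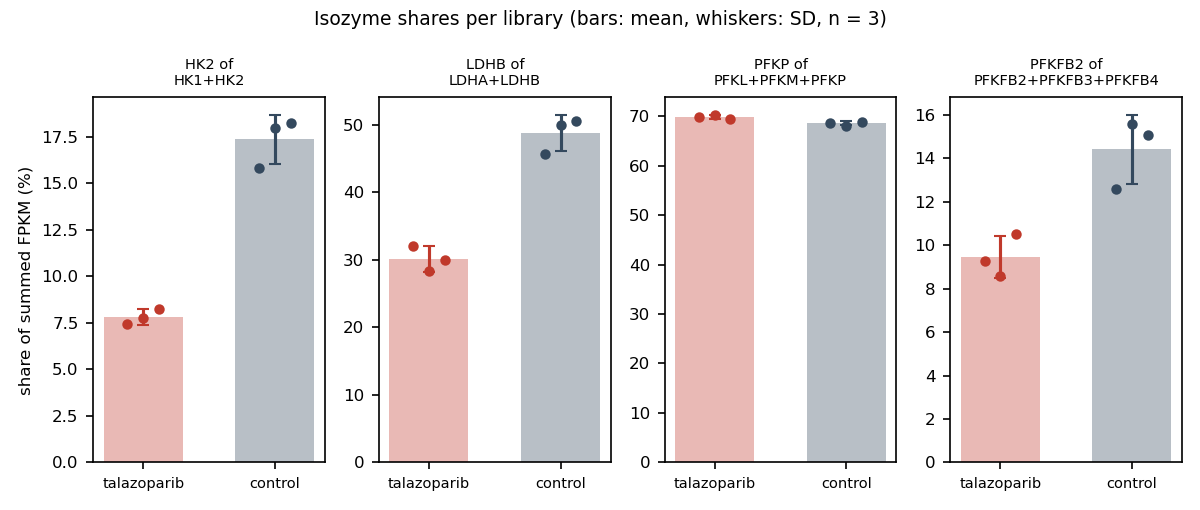
Share of summed FPKM (%) of 1 isozyme within its family in each library (points), with the mean (bars) and SD (whiskers) of 3 libraries per group, each panel on its own scale from 0. HK2 and LDHB hold a smaller share in all 3 talazoparib libraries than in any control library, PFKFB2 does too, and PFKP differs by about 1 percentage point. The GC and length trend was not removed from these shares. Trend-removed, the log2 fold change of PFKFB2 was 0.04, against -0.96 for HK2 and -0.82 for LDHB.

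Of the 12 enzymes between these steps 9 rose by small amounts, and PFKM, ALDOA and ALDOC were not past the test; trend-removed, GPI and PGK1 were higher and GAPDH lower. The isomerase GPI rose by 0.27 on the log2 scale (834 to 948 CPM with talazoparib, 684 to 790 CPM in control) and by 0.45 trend-removed, although its first call ended without talazoparib replicate 2, control replicate 2 or control replicate 3 (0.19 to 0.31). Phosphofructokinase, the committed step, rose in its liver form PFKL (0.41) and platelet form PFKP (0.38), while the muscle form PFKM was at 173 to 190 CPM with talazoparib and 158 to 172 CPM in control and did not pass (0.17, adjusted p = 0.0661). None of the 3 passed trend-removed (0.01, 0.08 and 0.08). By summed FPKM, PFKP was the major form, with a share of 69.8% ± 0.455 with talazoparib and 68.5% ± 0.425 in control (SD, n = 3 each).

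Further down the pathway, TPI1, which interconverts the 3-carbon sugars, rose by 0.49 (1184 to 1349 CPM with talazoparib, 817 to 1008 CPM in control). GAPDH, the dehydrogenase that is a common reference gene, had 4368, 4861 and 4212 CPM with talazoparib, against 3929, 3194 and 3349 CPM in control. All talazoparib libraries were higher, but control replicate 1 lay between the other control libraries and the talazoparib group. GAPDH rose by 0.36 ± 0.09 (edgeR adjusted p = 0.00624), and trend-removed it was lower by 0.12 (log2 fold change -0.12, adjusted p = 0.0385), so its direction depends on the fit. PGK1, which makes the first ATP, rose by 0.45 (626 to 679 CPM with talazoparib, 443 to 535 CPM in control) and by 0.90 trend-removed (adjusted p = 0.000606); its GC content of 43.3% puts it in the bin where 5.43% of genes rose. PGAM1 passed narrowly with overlapping groups (0.22, adjusted p = 0.0437), a call that ended without talazoparib replicate 1 or 2 or control replicate 2 or 3 (0.14 to 0.27) and trend-removed (-0.06).

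ENO1, the enolase, rose by 0.41 (4594 to 5252 CPM with talazoparib, 3405 to 4105 CPM in control). PKM, the pyruvate kinase of the last ATP-making step, had 4795, 5272 and 4579 CPM with talazoparib, against 3884, 3268 and 3375 CPM in control. It rose by 0.48 ± 0.09 (edgeR adjusted p = 0.000804), with no overlap between the groups. TPI1, ENO1 and PKM did not pass trend-removed (0.05, 0.03 and 0.11). Per gene, counts do not separate the PKM1 and PKM2 splice forms. The aldolases ALDOA (12.3 to 14.3 CPM with talazoparib, 10.1 to 12.03 CPM in control) and ALDOC (1.22 to 1.55 and 1.12 to 1.40 CPM) did not pass in either fit (0.27 and 0.13, and -0.22 and -0.30 trend-removed). The level of ALDOA is uncertain: it had 417 to 550 counts per library beside 28118 to 35649 for GPI, and 42.3% of its annotated exon bases are shared with another gene on the same strand.

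Counted together, the 16 enzymes took up 1.95%, 2.09% and 1.93% of all counts in the talazoparib libraries, against 1.74%, 1.55% and 1.58% in control. All 3 talazoparib libraries were above all 3 control libraries. GAPDH, ENO1 and PKM alone made up 1.39% ± 0.0701 with talazoparib and 1.09% ± 0.0820 in control (SD, n = 3 each). The sum over the 16 enzymes thus mostly follows these 3 genes. These shares are of unscaled counts, with the GC and length trend not removed. Trend-removed, GAPDH was lower (-0.12), and ENO1 and PKM (0.03 and 0.11) did not pass. GENCODE lists 62 numbered pseudogenes of GAPDH and 13 of PGAM1, none of them in the deposited table, and how reads shared with such copies were counted is not given in the sources used here.

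Of the enzymes that make and remove fructose-2,6-bisphosphate, the strongest activator of phosphofructokinase, PFKFB2 fell. It had 15.3, 15.04 and 16.9 CPM with talazoparib, against 22.8, 27.7 and 28.8 CPM in control. The groups did not overlap, with a log2 fold change of -0.75 ± 0.12 (edgeR adjusted p = 0.000249), but trend-removed the value was 0.04 (adjusted p = 0.725). The hypoxia-inducible PFKFB3 (55.8 to 63.9 CPM with talazoparib, 61.7 to 65.3 CPM in control) did not pass in the first fit (-0.08) and was lower trend-removed (-0.26, adjusted p = 0.00257). PFKFB4 (10.5 to 11.5 and 8.32 to 10.99 CPM) passed in neither (0.16, and -0.01 trend-removed). PFKFB3 held 77.5% ± 1.85 of the family's summed FPKM with talazoparib and 75.0% ± 0.652 in control.

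The transporters at the 2 ends of the pathway differed. SLC2A1 encodes the glucose transporter GLUT1 and is a HIF-1 target; it had 259, 279 and 254 CPM with talazoparib, against 279, 249 and 256 CPM in control. The groups overlapped almost fully, with a log2 fold change of 0.01 ± 0.08 (edgeR adjusted p = 0.894) that was -0.06 under total count scaling, and trend-removed it was lower (-0.24, adjusted p = 0.00089). GLUT3, from SLC2A3, had 1 to 9 counts per library and was not tested. SLC16A1, which encodes the lactate carrier MCT1, had 50.8, 42.6 and 72.2 CPM with talazoparib, against 90.3, 93.6 and 85.1 CPM in control; talazoparib replicate 3 was nearest to control. The log2 fold change was -0.70 ± 0.15 (edgeR adjusted p = 0.00249), and trend-removed it did not pass (-0.28, adjusted p = 0.13). SLC16A3, the hypoxia-inducible lactate exporter MCT4, rose by 0.41 (324 to 344 CPM with talazoparib, 236 to 269 CPM in control; edgeR adjusted p = 0.000637) and was at -0.01 trend-removed.

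Related genes from wider lists moved in both directions too. For comparison, 26.8% of all genes tested rose and 29.9% fell, and trend-removed 22.0% were higher and 22.2% lower. Of 29 further hypoxia-responsive genes 12 (41.4%) rose and 10 (34.5%) fell (median -0.04). Trend-removed, 14 of the 29 were higher and 3 lower (median 0.22). Those with the smallest adjusted p were rises in ANGPTL4, a lipase inhibitor (89.4 ± 3.60 CPM with talazoparib, 39.02 ± 5.27 CPM in control), DDIT4, an inhibitor of mTOR signalling (58.8 ± 3.13 and 31.3 ± 2.72 CPM), and the collagen-modifying enzymes PLOD1 (log2 fold change 0.75) and LOXL2 (0.59). All 4 were also higher trend-removed (0.67, 0.44, 0.38 and 0.25). The call turned round between the fits for ERO1A (-0.40, and 0.30 trend-removed), WSB1 (-0.26 and 0.42) and TFRC (-0.45 and 0.29), named after their values were seen. Among further HIF regulators 2 of 12 rose and 5 fell; the coactivators EP300 (-0.87) and CREBBP (-0.50) and the VHL-complex scaffold CUL2 (-0.87) fell in both fits (-0.72, -0.39 and -0.18 trend-removed), and ELOB, an adaptor of that complex, rose (0.55; -0.05 and not past the test trend-removed). SIAH1, likewise named after its values were seen, was called lower in the first fit (-0.45) and higher trend-removed (0.49).

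Of 23 further enzymes of glycolysis and pyruvate use tested, 8 (34.8%) rose and 6 (26.1%) fell (median -0.07). Over all genes tested these shares were 26.8% and 29.9%. Trend-removed, 7 of the 23 were higher and 3 lower (median 0.07), against 22.0% and 22.2% of all genes. Pyruvate carboxylase, PC, rose to 73.4 ± 2.37 CPM with talazoparib, against 40.4 ± 1.31 CPM in control, and the muscle enolase ENO3 to 8.57 ± 0.512 CPM, against 3.83 ± 0.634 CPM in control; both were also higher trend-removed (0.64 and 0.73). DLD, a subunit that pyruvate dehydrogenase shares with related complexes, fell to 22.2 ± 1.57 CPM, against 45.8 ± 10.2 CPM in control, and BPGM fell by 0.57 on the log2 scale; both fell trend-removed as well (-0.45 and -0.27). Among 6 enzymes of the pentose phosphate pathway 4 rose and 2 fell (RPIA and RPE, named after their values were seen). The rises in PGLS (0.54), TKT (0.48) and TALDO1 (0.40) did not pass trend-removed (-0.10, 0.12 and -0.08). PGD rose in both fits (0.43, and 0.19 trend-removed), and RPIA was the 1 enzyme of the 6 that was lower trend-removed. RPE was at -0.45 in the first fit and at 0.20 trend-removed, where it did not pass.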

How the data were processed

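RNA of DU 145 cells was sequenced in 6 libraries (3 talazoparib, 3 control). Trimmomatic, HISAT2, HTSeq, Cufflinks and GRCh38 are listed, per the submitters' processing notes, with no version; the annotation and the use of strand were not given in the sources used here. In their series, the authors deposited whole-number counts per gene symbol and an FPKM table. The deposited FPKM values equal the count over a gene length and the library's total count: implied lengths were whole within 0.01 nt for 99.95% of 21065 genes with a count, and were used as the deposited length.

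Counts were tested with edgeR 4.0.16 (R 4.3.3): filterByExpr with minimum count 10, TMM, robust quasi-likelihood test, Benjamini-Hochberg adjustment over 14452 genes. SE is the absolute log2 fold change over the square root of F. The trend-removed fit used natural splines (5 degrees of freedom each) of GC content (longest transcript, protein-coding first, GENCODE release 29) and log2 deposited length on each library's log2 CPM deviation as an offset. Both fits were also run on simulated counts with the same dispersion for every gene. For the trend-removed fit these counts carried each library's own fitted trend, so that run cannot show where the trend comes from. Alternatives used DESeq2 1.42.0, limma 3.58.1, other scalings and filters, log2(FPKM + 1) and log2(FPKM + 0.1), a block for the replicate number, and leaving out each library. The genes and lists were chosen with earlier results of these data known. A few genes of the wider lists are not reported here and were left out of the counts of those lists. Every gene of the set was named; values per library were given for called genes with an absolute log2 fold change of at least 0.5 and for HIF1A, VHL, EGLN1, HK1, VEGFA, SLC2A1, GAPDH, PKM and LDHA, and of each wider list up to 4 genes with the smallest adjusted p. Exon overlaps and pseudogenes are from GENCODE release 29. Intervals for counts were not computed, since libraries are the replicates; genes at a few counts were left untested at 39123997 to 39585727 counts per library.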

Additional observations from a re-analysis of the deposited data

How the results depend on the processing

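Removing the GC and length trend changed the calls of the enzymes. Of the 39 genes of the set tested, 9 were then called higher and 9 lower, against 22.0% and 22.2% of all 13718 genes. With the replicate block added to that fit 9 were called higher. The number was 10 when GENCODE transcript length took the place of the deposited length (a setting added after the data were examined). Of the enzymes 4 were called higher in each of these fits, with medians of 0.043, 0.043 and 0.014. In the same order, log2 fold changes with a changed sign were 0.49, 0.49 and 0.59 for PDK1, -0.42, -0.33 and -0.37 for ANKRD37, -0.22, -0.22 and -0.23 for ALDOA, and -0.30, -0.31 and -0.25 for ALDOC. They were -0.12, -0.12 and -0.082 for GAPDH, -0.062, -0.062 and -0.041 for PGAM1, -0.0060, -0.0004 and -0.11 for PFKFB4, and -0.24, -0.24 and -0.19 for SLC2A1. For genes that the report names from the wider lists, beside the 4 whose call turned round there and KRT18 and RPE, given below, they were -0.050, -0.049 and -0.017 for ELOB, -0.10, -0.10 and -0.064 for PGLS, and -0.082, -0.082 and -0.039 for TALDO1. In the first and the block fit they were 0.039 and 0.039 for PFKFB2 and -0.014 and -0.013 for SLC16A3. With GENCODE length only, they were 0.19 for EGLN1, 0.092 for CA12 and -0.0094 for PFKL. KRT18 went from 0.13 to -0.33 and RPE from -0.45 to 0.20 when the trend was removed, and their values in the other fits are not given. The cause was not tested.

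The enzyme median was 0.21 under total count scaling, 0.21 on log2(FPKM + 1) and 0.21 on log2(FPKM + 0.1), and 1 other HIF target was called higher in each. SLC2A1 was at -0.060, -0.060 and -0.060 in these settings and at -0.025 with a mean CPM of at least 5; ANKRD37 was at -0.0062 under total count scaling. The median of the other targets was -0.59 with a mean CPM of at least 5, which tests fewer of them. COL1A1 was at 0.0023 with RLE size factors and 0.0013 in DESeq2. Total count scaling put the median of all genes at -0.07.

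Leaving out 1 library at a time gave 11 to 17 genes of the set called higher, 1 to 2 other targets called higher, and enzyme medians of 0.22 to 0.34. In these fits 2622 to 3973 of all genes were called higher, so the count over all genes moved as well. The ranges were -0.32 to 0.32 for ANKRD37, -0.18 to 0.052 for BNIP3, -0.055 to 0.042 for SLC2A1 and -0.16 to 0.12 for COL1A1.

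Same-numbered libraries did not deviate together (r = -0.094, -0.173 and 0.00391), so the numbers were not taken as pairs, and no library correlated best with its own number. With the replicate block 3419 genes were called higher and 4161 lower, and 15 and 13 of the set; VHL and PGAM1 lost their call, as they did under total count scaling and on both FPKM scales. NDRG1 also lost its call under these 3 settings, VHL with a mean CPM of at least 5 and PDK1 on log2(FPKM + 0.1). With the block and the trend removed 2566 were called higher and 2573 lower. EGLN2, CA9 and SLC2A3 had 9 counts or fewer in each library and were too low to test; the cause was not tested.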
